A study of Homo sapiens with 4 samples.

Results

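The data described here are the response of KGN cells to the cyclic AMP analogue 8Br-cAMP after the co-activators YAP and TAZ had been knocked down. KGN is a line established from a human ovarian granulosa cell tumour. Cells transfected with YAP and TAZ siRNAs at 5 nM each received medium with 0.5 mM 8Br-cAMP (siYT+8Br-cAMP) or without it (siYT) 48 h later, and RNA was taken after a further 24 h. The same treatment was applied to cells given 10 nM of a control siRNA (siNC+8Br-cAMP and siNC). Both knockdown groups therefore carried the YAP and TAZ siRNAs, and the line and the culture medium were common to all 4 groups. Each group was 1 array (Affymetrix HG-U133 Plus 2.0), so 2 of the 4 arrays make up this comparison. With 1 array on each side there is no replicate check, and all differences are sizes without a test. The number of arrays limits their precision.

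The comparison took every probe set with a single gene symbol, which gave 19775 genes, each represented by its probe set with the highest mean intensity. Intensities are in arbitrary fluorescence units on a linear scale. Values below 62.6, the median of the whole table, were set to that floor before log2. A gene was compared where it lay above the floor on at least 1 of the 2 arrays, which held for 13621 genes. Log2 differences are siYT+8Br-cAMP minus siYT. A gene is called higher or lower at a difference of at least 2-fold, and where 1 array was at the floor the fold is only a bound, written as "at least".

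Cyclic AMP is the messenger through which gonadotropins act on granulosa cells. It activates protein kinase A, which phosphorylates the transcription factor CREB and so turns on genes that carry a cyclic AMP response element, among them genes of steroid hormone synthesis. YAP and TAZ are partner proteins of the TEAD transcription factors that are held back by the Hippo kinases and are known to favour growth. The transcripts of both targets were at similar levels on the 2 arrays compared. YAP1 read 1412 in siYT+8Br-cAMP and 1295 in siYT, and WWTR1, the gene for TAZ, read 1154 in siYT+8Br-cAMP and 1028 in siYT. With control siRNA YAP1 read 4772 in siNC+8Br-cAMP and 4915 in siNC.

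The largest difference of all was that of DIO2, the deiodinase that converts thyroxine to the active thyroid hormone, and its promoter is shown because it was the one window among the highest genes with a full cyclic AMP response element. The 300 bases below (RefSeq, GRCh38.p14, minus strand, chr14:80212129-80212428) run from 250 bases before the start site to 50 after it, with the palindrome TGACGTCA in capitals.
DIO2: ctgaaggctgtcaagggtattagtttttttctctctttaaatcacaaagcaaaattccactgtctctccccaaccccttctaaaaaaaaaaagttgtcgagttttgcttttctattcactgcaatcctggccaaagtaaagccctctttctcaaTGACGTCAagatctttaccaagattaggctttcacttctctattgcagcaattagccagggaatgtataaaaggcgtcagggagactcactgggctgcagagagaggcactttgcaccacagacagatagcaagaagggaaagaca
The palindrome begins 96 bases before the start site. Of the 30 genes named below as highest (20 above the floor on both arrays and 10 with siYT at the floor), 24 had a window in the table, with 37 windows between them. The palindrome was found for 1 of these 24 genes and the shorter core TGACG, on either strand and counting those inside the palindrome, for 12 of them. By window, TGACG was in 30.6% of those of all genes compared, and a gene with several windows has more chances to match. A share by gene was not taken over all genes, so the 12 cannot be read as an excess. A match of letters is a description of the sequence and not a bound site.

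In all, 732 of 13621 genes were at least 2-fold higher (5.37%) and 1443 were at least 2-fold lower (10.6%) with 8Br-cAMP after YAP/TAZ knockdown. Lower calls thus made up 66.3% of the calls. The median difference of all compared genes was -0.02, with the 10th percentile at -1.03 and the 90th at 0.77. At 4-fold, 100 genes were higher and 185 lower. At 8-fold the counts were close, at 20 and 23. As bounds against the floor, 126 of the higher genes had siYT at the floor and 207 of the lower genes had siYT+8Br-cAMP at the floor.

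Level and array quality moved with these differences. With genes split into 10 equal bins by mean intensity, the median difference was -0.27 in the third bin and 0.26 in the brightest, and the share of lower genes was 17.8% in the second bin and 3.32% in the brightest. On the siYT+8Br-cAMP array the 3' to 5' signal ratio of ACTB was 1.35, against 1.12 on the siYT array and 1.07 to 1.14 on the control siRNA arrays. The 18 probe sets for spiked hybridisation controls, which carry no cell RNA, had a median log2 difference of 0.44, and 16 of them were above 0. In the control siRNA comparison that median was 0.13. The part of these shifts in the counts of calls was not tested.

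**Figure D1:**
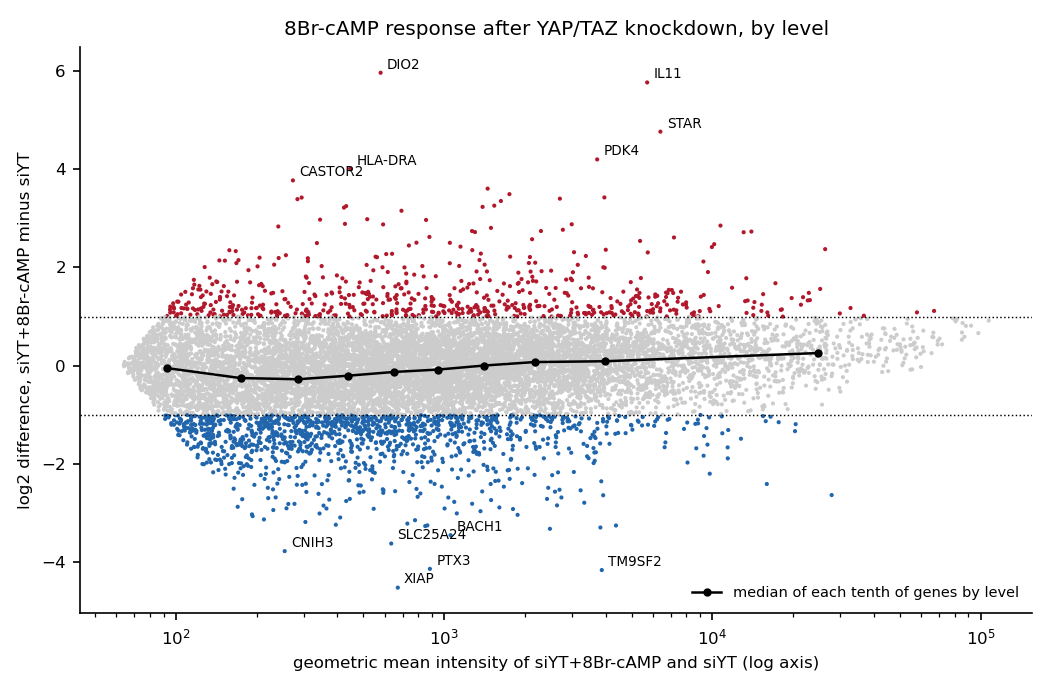
Log2 difference (siYT+8Br-cAMP minus siYT) of each gene above the floor on both arrays against its geometric mean intensity (log axis). Red points are at least 2-fold higher and blue points at least 2-fold lower; black points join the medians of 10 bins of genes by level, which lie at -0.27 in the third bin and 0.26 in the brightest.

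Without replicates, probe sets of the same gene give the nearest thing to a measurement error. The SD of the difference between probe sets of 1 gene, over 8344 probe sets of 3334 genes well above the floor, was 0.53 on the log2 scale, against 0.38 for the control siRNA comparison. It leaves out variation between cultures. Of the 351 higher genes with another probe set above the floor, 67.2% had all their probe sets on the higher side and 37.3% had another at 2-fold. For the 772 lower genes with another probe set, these shares were 59.1% and 30.6%, and 18.9% had no other probe set on the lower side.

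The 20 genes with the highest difference are described first. DIO2 read 4576 in siYT+8Br-cAMP and 73.4 in siYT, a difference of 5.96 (62.4-fold), and 1566 in siNC+8Br-cAMP and 106 in siNC. Its siYT value stood just above the floor of 62.6. All 4 of its other probe sets above the floor were at least 2-fold higher, by 3.02 to 5.74. IL11, a cytokine of the interleukin-6 family, read 42102 in siYT+8Br-cAMP and 774 in siYT (5.76, or 54.4-fold). With control siRNA it read 17829 in siNC+8Br-cAMP and 216 in siNC, so the knockdown arrays lay above the control siRNA arrays with and without the analogue. STAR, which carries cholesterol into mitochondria for steroid synthesis, read 33335 in siYT+8Br-cAMP and 1227 in siYT (27.2-fold). Its levels were close to those with control siRNA, 37308 in siNC+8Br-cAMP and 1284 in siNC.

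PDK4, the kinase that shuts off pyruvate dehydrogenase and so spares glucose, was 18.4-fold higher (log2 4.20), and both of its other probe sets gave 2.98 and 4.03. It reached 15930.3 in siYT+8Br-cAMP against 868 in siYT, and 2925 in siNC+8Br-cAMP against 306 in siNC. SFRP1, a secreted Wnt antagonist, was 12.2-fold higher at 5065 in siYT+8Br-cAMP against 416 in siYT. NPR3, the clearance receptor for natriuretic peptides, stood at 8771 in siYT+8Br-cAMP and 831 in siYT (10.6-fold), and its 2 other probe sets were 1.92 and 2.14 higher. Its difference with control siRNA was 1.49, from 4334 in siNC+8Br-cAMP and 1542 in siNC. IGFBP4, which binds insulin-like growth factors, was 10.2-fold higher, and its control siRNA difference of 3.56 was much the same size as the 3.35 seen here.

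Of the remaining highest genes, CASTOR2 (an arginine sensor homologue, 3.77), DNAJC12 (a co-chaperone, 3.43), WDR91 (3.26), CRISPLD2 (a secreted protein, 3.25), SLC27A2 (a fatty acid transporter, 3.23), CPM (carboxypeptidase M, 3.15), URB1 (2.98) and RAP1GAP (which switches off the small GTPase RAP1, 2.97) were each above the floor on both arrays. DNAJC12 was the brightest of these, at 12961 in siYT+8Br-cAMP and 1206 in siYT. CASTOR2 stood just above the floor in siYT, at 73.9. RAP1GAP had the smallest control siRNA difference of the 20, at 0.75. It read 966 in siYT+8Br-cAMP and 123 in siYT, and 318 in siNC+8Br-cAMP and 189 in siNC.

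**Figure D2:**
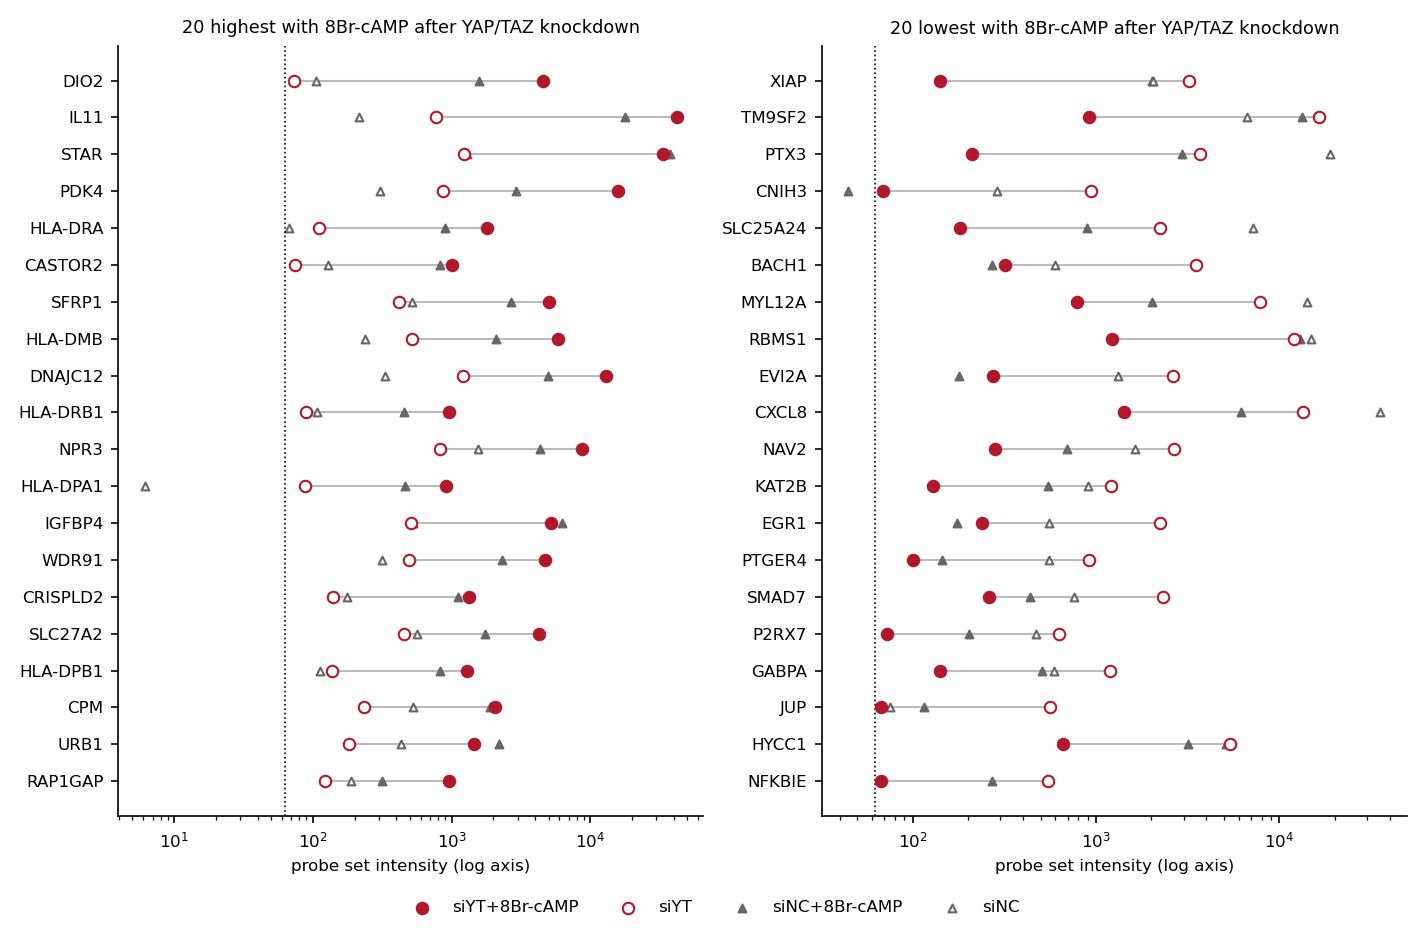
Deposited intensity (log axis) of the representative probe set of the 20 highest and 20 lowest genes, red filled circles for siYT+8Br-cAMP, red open circles for siYT, grey triangles for the control siRNA arrays (filled with 8Br-cAMP, open without); the dotted line is the floor of 62.6. DIO2 reads 4576 in siYT+8Br-cAMP and 73.4 in siYT, and XIAP 140.4 in siYT+8Br-cAMP and 3212 in siYT.

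Genes of MHC class II, the molecules that present peptides to helper T cells, held 5 of the 20 highest places. They were gathered as a group after their values had been seen, so the group's count is a description only. HLA-DRA, the alpha chain of the DR molecule, read 1789.9 in siYT+8Br-cAMP and 111 in siYT (16.1-fold), with its other probe set at 3.47. HLA-DMB, which helps load peptides, read 5872 in siYT+8Br-cAMP and 522 in siYT (11.3-fold). The DR beta chain gene HLA-DRB1 was 10.7-fold higher, HLA-DPA1 10.5-fold and HLA-DPB1 9.31-fold. In siYT, HLA-DRB1 read 89.8 and HLA-DPA1 87.6, not far above the floor. The other HLA-DPA1 probe sets gave 0.69 and 1.80, and its difference was 0.69 without shared probe sets. The HLA-DRB1 probe set is of a kind that can pick up its near-identical relatives. CD74, the invariant chain that escorts class II molecules, was 3.78-fold higher and HLA-DMA 4.63-fold.

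Of 15 such genes measured, 13 were compared, 8 were higher and 1 was lower, with a median of 1.92. Over all compared genes, 5.37% were higher and 10.6% lower. CIITA, the master transactivator of class II genes, read 161 in siYT+8Br-cAMP and 37.3 in siYT, where it was under the floor, so it was at least 2.58-fold higher. Its 2 other probe sets gave 0.50 and -0.11. RFX5, a subunit of the factor that binds the X box of these promoters, differed by 0.33 on its representative and 1.33 on its other probe set, and its partner RFXAP was 2.79-fold lower with its other at -0.18. HLA-DQB1 differed by -0.18, and HLA-DOB and HLA-DQA1 were at the floor on both arrays. With control siRNA the differences were 3.74 for HLA-DRA, 3.14 for HLA-DMB and 2.10 for HLA-DRB1, while HLA-DQB1 was at least 1.22 higher there, with siNC under the floor.

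Class II promoters are known for a shared upstream box that RFX and CREB-like factors occupy, followed by a CCAAT box. Promoter stretches of 4 class II genes are shown because they carry the same letters; 3 of these genes were higher and HLA-DOB was not above the floor. The motif CTGATGATG was chosen after the promoters had been read. Each stretch is 60 bases (RefSeq, GRCh38.p14, minus strand of chromosome 6), with CTGATGATG and the reverse CCAAT box ATTGG in capitals.
HLA-DMB (chr6:32941067-32941126): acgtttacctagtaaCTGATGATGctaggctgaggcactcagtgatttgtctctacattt
HLA-DRB1 (chr6:32589878-32589937): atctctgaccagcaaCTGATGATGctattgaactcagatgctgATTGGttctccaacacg
HLA-DMA (chr6:32953161-32953220): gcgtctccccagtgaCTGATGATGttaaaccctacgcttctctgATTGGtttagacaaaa
HLA-DOB (chr6:32817083-32817142): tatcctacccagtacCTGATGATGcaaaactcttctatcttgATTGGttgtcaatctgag
The motif lay 74 bases before the start site in HLA-DRB1, 83 in HLA-DMB, 108 in HLA-DMA and 125 in HLA-DOB. In HLA-DMA, HLA-DRB1 and HLA-DOB the ATTGG followed after 20, 19 and 18 bases. No ATTGG stands in the HLA-DMB stretch. HLA-DOB read 59.2 in siYT+8Br-cAMP and 23.7 in siYT. Of 9 HLA-D genes with a window (10 windows), 4 held the motif. HLA-DPA1 and HLA-DPB1, both among the 20 highest genes, did not hold it, nor did HLA-DOA, HLA-DQA1 and HLA-DQB1. HLA-DRA had no window. Counted by window and not by gene, the motif was in 0.27% of all 35116 windows of the table.

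Motif shares were also taken over all higher and all lower genes. The palindrome TGACGTCA was in 3.33% of 902 windows of higher genes and 2.22% of the 1712 windows of lower genes, against 2.67% of windows of all genes compared and 1.85% of all windows. The shorter core TGACG was in 30.8% of windows of higher genes and 27.2% of those of lower genes, against 30.6% for all genes compared and 24.6% for all windows. For AAGGTCA, the site that NR5A and NR4A receptors bind, the shares were 3.33% (higher), 2.86% (lower), 2.83% (compared) and 3.92% (all windows). For GGAATG, the letters of the TEAD site, they were 12.4%, 12.5%, 11.6% and 14.03% in that order. CTGATGATG was in 0.67% of windows of higher genes and 0.12% of those of lower genes, against 0.20% for all genes compared. Among genes at least 4-fold higher it was in 4 of 135 windows (2.96%), and since it was chosen from class II promoters these shares are no independent evidence. Motifs were searched on both strands.

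The 20 genes with the lowest difference included regulators of inflammation and growth factor signalling. PTX3, a pentraxin of the matrix around the ovulating oocyte, read 211 in siYT+8Br-cAMP and 3705 in siYT (17.5-fold lower), and 2940 in siNC+8Br-cAMP and 18913 in siNC. CXCL8, the neutrophil-attracting interleukin-8, stood at 1416 in siYT+8Br-cAMP and 13481 in siYT (9.52-fold lower), and its other probe set differed by -2.03. EGR1, an immediate early transcription factor, was 9.27-fold lower at 239 in siYT+8Br-cAMP against 2219 in siYT, with its 2 other probe sets at -2.41 and -3.18. SMAD7, which inhibits TGF-beta signalling, read 262 in siYT+8Br-cAMP and 2315 in siYT (8.83-fold lower).

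PTGER4, a prostaglandin E2 receptor that itself raises cyclic AMP, was 9.06-fold lower (101 in siYT+8Br-cAMP and 915 in siYT). NFKBIE, an inhibitor of NF-kappaB, was 8.14-fold lower, but at 67.3 in siYT+8Br-cAMP it stood just above the floor. Among the others, SLC25A24 (a mitochondrial carrier, -3.62), BACH1 (a repressor of haem oxygenase, -3.45), MYL12A (a myosin light chain, -3.32), EVI2A (-3.26), NAV2 (-3.25), KAT2B (a histone acetyltransferase, -3.24), P2RX7 (an ATP-gated channel, -3.13), GABPA (an ETS factor, -3.09) and HYCC1 (-3.03) were lower. CNIH3, an auxiliary protein of AMPA receptors, was 13.7-fold lower with siYT+8Br-cAMP near the floor (68.8 in siYT+8Br-cAMP and 940.4 in siYT). Other probe sets of these genes differed less, at 0.04 for SLC25A24, -0.86 to -1.18 for MYL12A, -1.36 and 0.00 for NAV2, -0.86 for P2RX7, -0.39 for GABPA and -0.13 to -1.70 for HYCC1. EVI2A, KAT2B and BACH1 had no other above the floor.

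Several of the lowest values rested on a single probe set. XIAP, an inhibitor of caspases, had the lowest value of all. Its representative probe set read 140.4 in siYT+8Br-cAMP and 3212 in siYT (-4.52), and 2026 in siNC+8Br-cAMP and 2046 in siNC. The brightest of its 6 other probe sets read 2240.3 in siYT+8Br-cAMP and 1676 in siYT (0.42), and the rest lay between -1.42 and -0.27. For RBMS1, an RNA-binding protein, the representative was 9.79-fold lower (1221 in siYT+8Br-cAMP and 11959.8 in siYT), while all 5 others were higher, by 0.16 to 0.82. TM9SF2, an endomembrane protein, had no other probe set. It read 916 in siYT+8Br-cAMP and 16339 in siYT (17.8-fold lower), and 13299 in siNC+8Br-cAMP and 6669 in siNC.

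**Figure D3:**
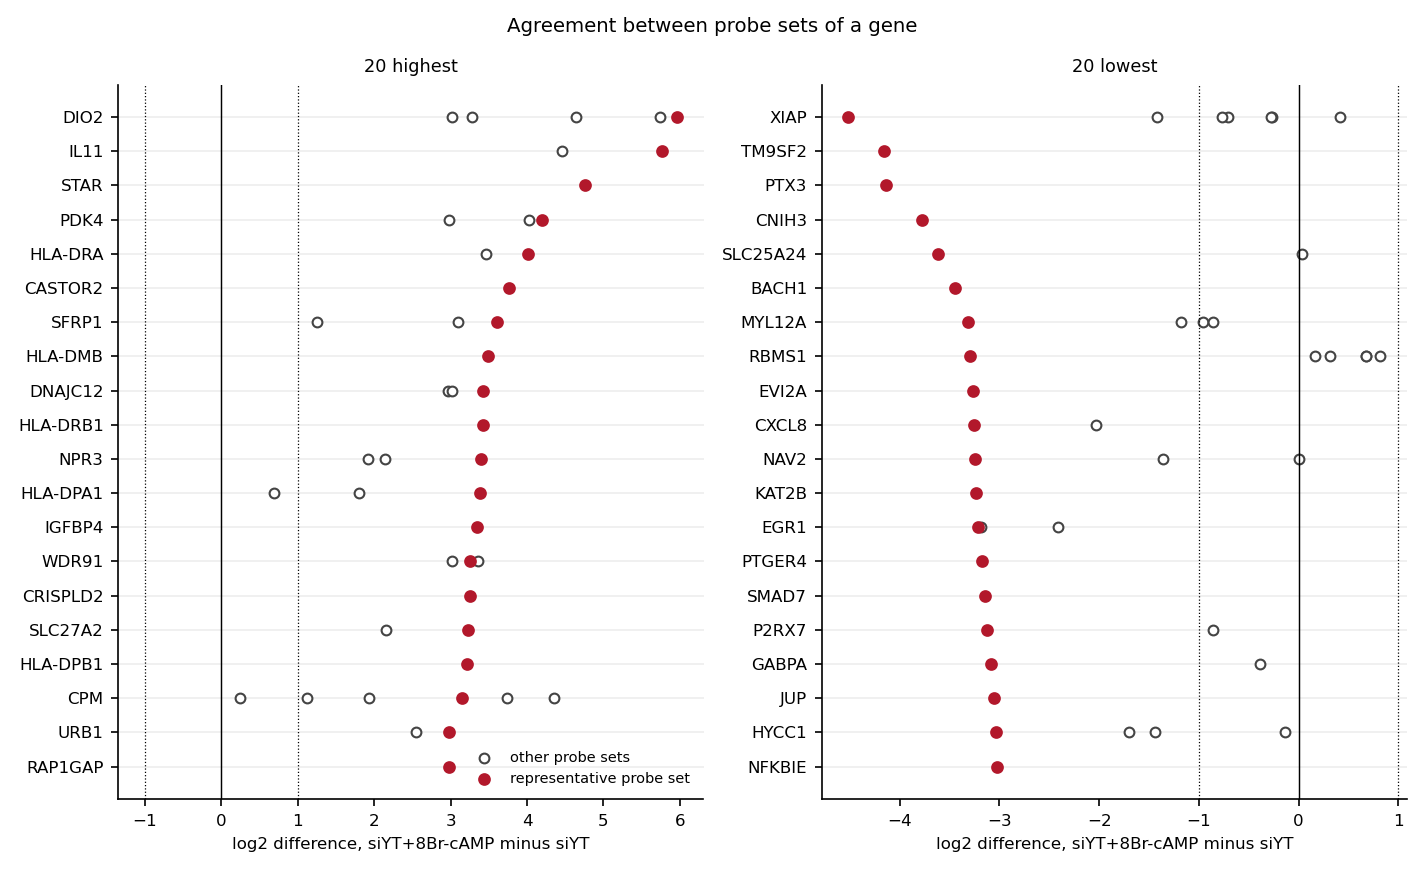
Log2 difference (siYT+8Br-cAMP minus siYT) of every probe set above the floor on at least 1 of the 2 arrays for the 20 highest genes (left) and the 20 lowest (right); red points are the representative probe sets, open points the others, dotted lines 2-fold. All open points shown for the highest genes lie above 0. STAR, CASTOR2, HLA-DMB, HLA-DRB1, IGFBP4, CRISPLD2, HLA-DPB1 and RAP1GAP have no open point, having no other probe set above the floor. RBMS1 has its 5 other probe sets between 0.16 and 0.82 and XIAP has its 6 between -1.42 and 0.42.

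Some genes were above the floor on only 1 of the arrays. GALNT15, an enzyme that starts mucin-type sugar chains, read 1063 in siYT+8Br-cAMP and 48.3 in siYT and was at least 17.0-fold higher. GNAL, the olfactory stimulatory G protein that couples receptors to cyclic AMP production, was at least 10.6-fold higher, with its other probe set above the floor at 0.40. DLGAP1-AS3, MOB3B, CYP2S1, HPD, TMEM91, SPINK4, IL1R2 and LINC00473 followed, with bounds between 6.05-fold and 4.36-fold. IL1R2 is the decoy receptor for interleukin-1. On the lower side, RAB12, a small GTPase, read 44.5 in siYT+8Br-cAMP and 679.9 in siYT and was at least 10.9-fold lower, though 1 of its 2 other probe sets was 1.43 higher. TDO2, which degrades tryptophan, was at least 7.44-fold lower, and INHBE, an activin subunit, at least 6.82-fold. SLC14A1, FAM200C, NME5, KY, CEMIP, LRRN4CL and ZXDA had bounds between 6.99-fold and 5.08-fold.

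For the gene lists below, the shares over all compared genes were 5.37% higher and 10.6% lower. Phosphodiesterases break cyclic AMP down. Of 11 compared, 3 were higher (27.3%, against 5.37% of all genes) and 0 lower, with 7 above 0, 4 below 0 and a median of 0.33. PDE7B read 2162 in siYT+8Br-cAMP and 509 in siYT (4.25-fold), with both other probe sets at least 2-fold higher. PDE4D was 3.52-fold higher and PDE8B 3.26-fold. PDE4B differed by 0.87, and PDE7A (-0.46), PDE4A (-0.40) and PDE10A (-0.34) were among those below 0. Among 20 genes of cyclic AMP production and its effectors, 2 were higher and 3 lower. GNAI1, the inhibitory G protein subunit, read 12031 in siYT+8Br-cAMP and 4135 in siYT (2.91-fold), and the EPAC gene RAPGEF3 was at least 3.19-fold higher. PKIB, an inhibitor of protein kinase A, was 3.69-fold lower, adenylyl cyclase ADCY7 3.59-fold and the regulatory subunit PRKAR2B 2.03-fold.

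Of 14 genes of the CREB family, its coactivators and the SIK kinases that restrain them, 4 were higher (28.6%) and 3 lower (21.4%). SIK1 read 5934 in siYT+8Br-cAMP and 887 in siYT (6.69-fold), with its other probe set at 1.60. CREM, whose ICER forms repress cyclic AMP targets, was 2.30-fold higher on its representative probe set, but 3 of its 5 others were below 0. CREB1 itself was 5.50-fold lower on its representative, while its 6 others lay between -0.92 and 0.37. The coactivator gene CREBBP was 7.47-fold lower on its representative and had others at -0.89 and 0.30. SIK2 and CREB3L1 were higher, by 1.12 and 1.13, with all their other probe sets below 0.

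The immediate early factors and CREB targets were divided, with 7 of 26 higher (26.9%) and 9 lower (34.6%). The higher genes were SGK1, BDNF, NR4A2, NR4A3, DUSP1, NR4A1 and PTGS2. SGK1, a kinase that promotes sodium uptake and survival, was 6.64-fold higher at 35990.0 in siYT+8Br-cAMP against 5421 in siYT. The neurotrophin gene BDNF was 5.82-fold higher and the orphan receptor gene NR4A2 5.45-fold. NR4A3 was at least 3.29-fold higher from a level under the floor in siYT. The lower genes were members of the AP-1, EGR and KLF families with BTC, MAFF and PER2. Besides EGR1, the AP-1 subunit JUN was 5.91-fold lower (1065 in siYT+8Br-cAMP and 6292 in siYT), and all 3 of its other probe sets were at least 2-fold lower. FOSL1 was 4.19-fold lower.

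Of 22 steroidogenic genes compared, 4 were higher (STAR, CYP11A1, CYP19A1 and HSD3B2, 18.2%) and 1 lower (SRD5A1, 4.55%), and 17 were above 0. CYP11A1, the side-chain cleavage enzyme, read 4518 in siYT+8Br-cAMP and 1056 in siYT (4.28-fold). HSD3B2, the next enzyme in the pathway, read 507 in siYT+8Br-cAMP and 179 in siYT (2.83-fold). CYP19A1, the aromatase that makes oestrogen, read 24784 in siYT+8Br-cAMP and 7213 in siYT (3.44-fold), and a second probe set was 8.82-fold higher. Genes of cholesterol supply gave 0 higher and 2 lower of 22 (9.09%). The 2 were LSS, which closes the sterol rings (4.44-fold), and STARD4, a cholesterol carrier (4.23-fold). The other LSS probe sets gave -0.97 and -0.50.

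KGN cells were checked against 12 markers of granulosa cells, of which 11 had a probe set with 1 symbol. Of these, 9 were above the floor on at least 1 of the 2 arrays, among them FOXL2, the factor that maintains granulosa identity, while the FSH receptor FSHR and NR5A1 were at the floor on all 4 arrays. FOXL2 was 2.43-fold higher (1765 in siYT+8Br-cAMP and 726 in siYT), whereas WT1 was 2.70-fold lower on its representative probe set and 0.86 higher on its other. The 11 granulosa markers summed to 110128.5 in siYT+8Br-cAMP and 27028.1 in siYT. Sums for markers of other cell types were lower, but single members were not all near the floor. In siYT, PECAM1 read 381, PTCH1 326 and KDR 261, against 66.1 for the granulosa marker INHA. The summed intensity of 5 theca and Leydig markers was 614.5 in siYT+8Br-cAMP and 697.4 in siYT, that of 5 leukocyte markers 123.5 and 130.8, and that of 6 epithelial markers 188.0 and 109.0 on the same arrays. The 6 endothelial markers summed to 249.1 in siYT+8Br-cAMP and 757.1 in siYT, with CDH5, CLDN5 and VWF at the floor on all 4 arrays and both compared members, KDR and PECAM1, lower.

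Inhibin and activin genes went several ways. INHBA, the activin A subunit, read 33512 in siYT+8Br-cAMP and 5097 in siYT (6.57-fold), with both other probe sets at least 2-fold higher. INHA, the inhibin alpha subunit, was 3.14-fold higher from a level of 66.1 in siYT, near the floor, and INHBB was 2.55-fold lower. TGFB3 was 7.40-fold higher and GDF15, a stress-induced relative, 5.18-fold, although the other GDF15 probe sets gave 0.77 and -0.16. BMP6 was 5.67-fold higher on its representative and 0.28 on its other. The BMP targets ID1 (1.26) and ID3 (1.01) were higher too, though both differed more with control siRNA. Of 18 genes of BMP ligands, ID proteins and inhibitory SMADs, these 3 were higher. As many, SMAD7, SMAD5 and BMPR2, were lower. The list had 9 genes above 0, 9 below 0 and a median of -0.0027.

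The genes of ovulation and the cumulus matrix had 5 of 24 higher (20.8%) and 9 lower (37.5%). Higher were IGFBP4, HAS2, PTGES, CTSL and PTGS2, and lower were PTX3, PTGER4, RUNX2, BTC, PLAT, TNFAIP6, PLAU, CD44 and ITIH5. HAS2, which makes the hyaluronan backbone of the matrix, was 3.58-fold higher at 753 in siYT+8Br-cAMP against 211 in siYT, with a second probe set at -0.02. PTX3 and TNFAIP6 (3.14-fold lower), both known to cross-link that hyaluronan, were lower. PTGES, the prostaglandin E synthase, was 3.17-fold higher and the cyclooxygenase PTGS2 2.39-fold.

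Of 15 chemokine genes, 7 were lower (46.7%) and 1 higher (6.67%), with a median of -0.95. CXCL3 was 5.03-fold lower, CXCL1 3.59-fold and CXCL2 3.15-fold, and CCL20 was at least 4.49-fold lower with siYT+8Br-cAMP under the floor. The scavenger receptor ACKR3 was the exception, at 19296 in siYT+8Br-cAMP and 4437 in siYT (4.35-fold higher). Of 25 genes of the NF-kappaB, interleukin-1 and TNF pathway, 8 were lower (32.0%) and 1 higher (4.0%). The adhesion molecule VCAM1 was 5.89-fold lower and NFKB1 3.65-fold, while TNFAIP3, which shuts NF-kappaB signalling off, was 2.51-fold higher with both of its probe sets at 2-fold.

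Of 28 interferon-stimulated genes, 9 were lower (32.1%), 0 were higher and 20 were below 0, with a median of -0.77. IFIT1, which binds viral RNA, read 511 in siYT+8Br-cAMP and 1897 in siYT (3.71-fold lower). IFIT2 was 4.21-fold lower (other probe set -0.58), RIGI, a sensor of viral RNA, 3.94-fold, the transcription factor IRF1 3.51-fold and OAS1 3.21-fold. With control siRNA the median of the same genes was 0.01, and 6 were lower and 1 higher. MHC class I genes did not follow class II. Of 15 compared, HLA-B was 2.17-fold higher, the peptidase ERAP2 2.77-fold lower (6.67% each way) and the rest within 2-fold. B2M, the class I light chain, differed by 0.81 on its representative and by -0.76 and -1.39 on its others.

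**Figure D4:**
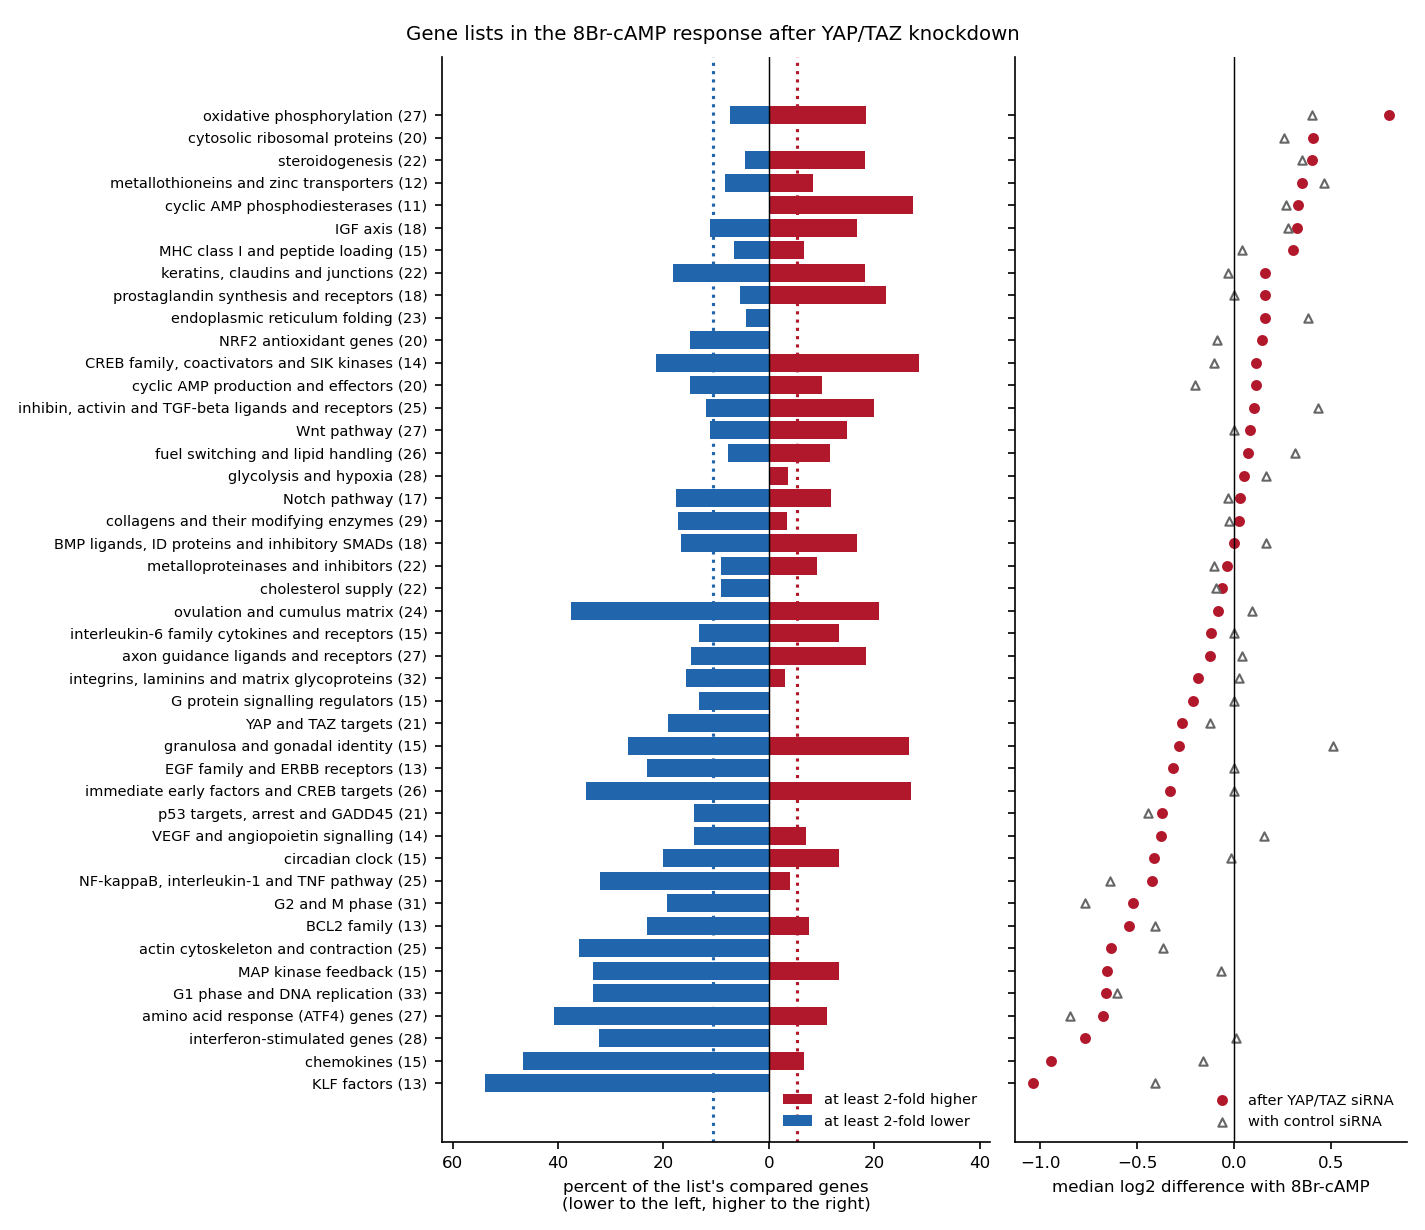
For each gene list (number of genes compared in brackets), the left panel shows the percent of genes at least 2-fold higher (red, to the right) and at least 2-fold lower (blue, to the left), with dotted lines at the 5.37% and 10.6% of all genes, and the right panel the median log2 difference with 8Br-cAMP after YAP/TAZ siRNA (red circles) and with control siRNA (open triangles). Oxidative phosphorylation has the highest median, 0.80, and the KLF factors the lowest, -1.04.

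Growth factor and MAP kinase genes included feedback genes in both directions. Of 15 MAP kinase feedback genes, 2 were higher (13.3%) and 5 lower (33.3%). RASD1, a Ras-like protein induced by glucocorticoids, was 6.68-fold higher and the phosphatase gene DUSP1 3.20-fold, at 30724 in siYT+8Br-cAMP against 9593 in siYT. The ERK phosphatase gene DUSP6 was 4.19-fold lower, with both other probe sets lower at 2-fold. SPRED1, an inhibitor of Ras signalling, was 4.32-fold lower, with other probe sets at -0.71 and -0.27. None of 13 EGF family and ERBB receptor genes was higher, and TGFA, BTC and ERBB3 were lower (23.1%). KLF transcription factors had 7 of 13 lower (53.8%), 0 higher and a median of -1.04, led by KLF2 (5.28-fold), KLF6 (4.50-fold) and KLF4 (3.18-fold). That median is the value of KLF15, which, as with KLF16, is a bound with siYT+8Br-cAMP under the floor. The KLF median ran between -1.17 and -0.55 over the alternatives.

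Contractile and matrix lists differed. Of 25 actin cytoskeleton genes, 9 were lower (36.0%, against 10.6% of all genes), 0 higher and 21 below 0, with a median of -0.63. MYLK, the kinase that activates myosin, read 4079 in siYT+8Br-cAMP and 15978 in siYT (3.92-fold lower), and CALD1 was 3.16-fold and ACTA2 3.09-fold lower. Of 8 other CALD1 probe sets, which ran from -1.26 to 0.09, 2 were lower at 2-fold. Among 29 genes of collagens and their modifying enzymes, 5 were lower (17.2%) and 1, COL4A2, higher, with 16 above 0 and a median of 0.02. COL1A1 was 5.30-fold lower (6926 in siYT+8Br-cAMP and 36702 in siYT), with all 3 other probe sets lower at 2-fold. Of 32 integrin, laminin and matrix glycoprotein genes, 5 were lower (15.6%) and 1 higher, with a median of -0.19. Metalloproteinases and their inhibitors had 2 higher and 2 lower of 22 (9.09% each way). TNC, a matrix glycoprotein, was 4.58-fold lower and the integrin gene ITGA2 4.47-fold. Of 21 YAP/TAZ targets, 4 were lower (ANKRD1, CCN2, AJUBA and RBMS3; 19.0%, against 10.6% of all genes) and 0 higher, with 10 above 0, 11 below 0 and a median of -0.27. With control siRNA 5 of these targets were lower and 1 higher. CCN2 read 3888 in siYT+8Br-cAMP and 11463 in siYT.

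Most cell cycle genes were below 0, with 23 of 33 in G1 phase and DNA replication and 24 of 31 in G2 and M phase. Of 33 genes of G1 phase and DNA replication, 11 were lower (33.3%) and 0 higher (median -0.66). Among the lower were CCND1, cyclin D1, which was 3.13-fold lower with both probe sets at 2-fold or more, and UHRF1 (3.13-fold). Of 31 genes of G2 and M phase, 6 were lower (19.4%) and 0 higher (median -0.52). With control siRNA, 12 of these G2 and M phase genes were lower and 0 higher (median -0.77). For the G1 phase and replication genes, 8 were lower and 0 higher there (median -0.61). Genes of the amino acid response had 11 of 27 lower (40.7%) and 3 higher (11.1%), with a median of -0.68. With control siRNA 9 of them were lower and 0 higher, with a median of -0.85. The serine synthesis gene PSAT1 read 984 in siYT+8Br-cAMP and 7053 in siYT (7.17-fold lower), CBS was 6.47-fold lower, asparagine synthetase ASNS 3.26-fold and the stress factor gene DDIT3 3.47-fold. CTH, which makes cysteine, was 4.08-fold higher with its other probe set at 1.81, and the amino acid transporter SLC7A5 was 3.46-fold higher.

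Of 27 oxidative phosphorylation genes compared, 25 were above 0 and the median was 0.80, with 5 higher (18.5%) and 2 lower (7.41%). NDUFA2 (complex I) read 10125 in siYT+8Br-cAMP and 3703 in siYT (2.73-fold), ATP5F1B (ATP synthase) was 2.52-fold higher and COX7B (complex IV) 2.51-fold, with its other probe set at 1.10. UQCRB was 3.20-fold lower on its representative, with others between -1.17 and 0.55. These genes are bright, and bright genes as a whole stood above 0 (median 0.26 in the brightest bin). Cytosolic ribosomal protein genes, also bright, had a median of 0.40 with 0 of 20 past 2-fold. After quantile normalization the ribosomal median was -0.03. The oxidative phosphorylation median ran between 0.51 and 0.80 over the alternatives, and the part of level in it was not tested.

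The response after knockdown can be set beside that with control siRNA, which shares no array with it. There, 13102 genes were compared, of which 628 were higher (4.79%) and 755 lower (5.76%). Of the 732 genes higher after knockdown, 213 were also at least 2-fold higher with control siRNA, which is 29.1% of the 732 and 33.9% of the 628. Of the 1443 lower genes, 303 were also lower, which is 21.0% of the 1443 and 40.1% of the 755. Any difference in the same direction was seen for 77.0% of the higher and 74.8% of the lower genes. Genes at the floor on both control siRNA arrays counted here as not going the same way. The matching share over all compared genes was not taken. Across the 10791 genes that exceeded the floor on all 4 arrays, the differences had a Pearson correlation of 0.49 and a Spearman correlation of 0.43, as a description over genes that share arrays and are not replicates.

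**Figure D5:**
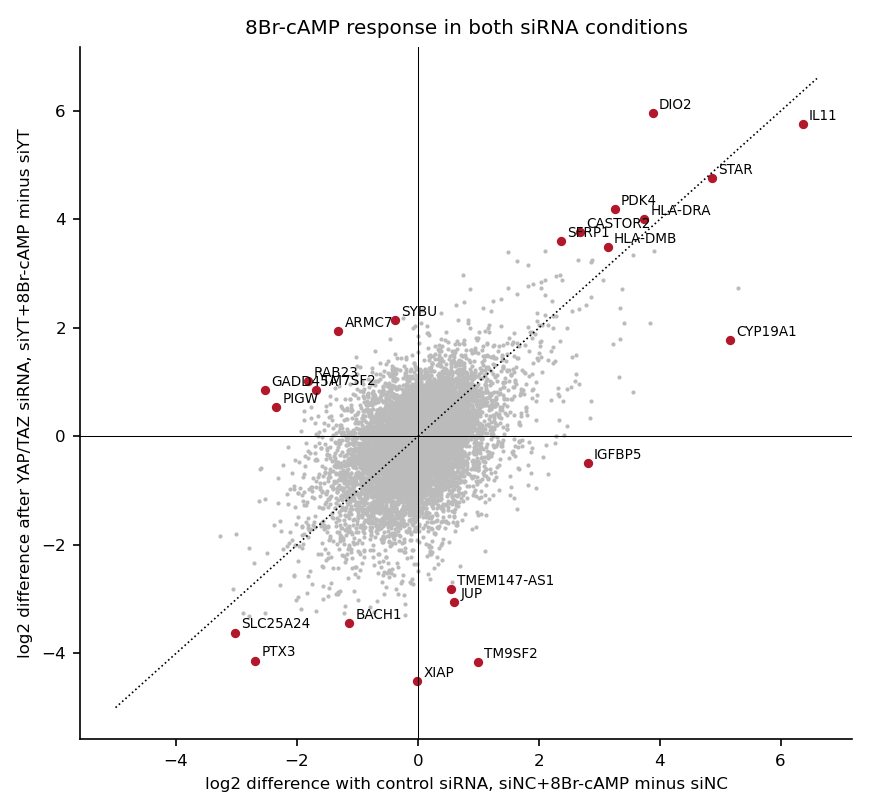
Log2 difference with 8Br-cAMP after YAP/TAZ siRNA (vertical axis) against that with control siRNA (horizontal axis) for 10791 genes above the floor on all 4 arrays; the dotted line marks equal differences and named genes are red. DIO2, IL11 and STAR lie far up in both, CYP19A1 is at 1.78 after knockdown and 5.16 with control siRNA, and TM9SF2 is at -4.16 after knockdown and 1.00 with control siRNA.

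A few genes differed strongly between these responses, and with 1 array for each combination the difference could not be tested. CYP19A1 differed by 1.78 after knockdown and by 5.16 with control siRNA, where it read 6558 in siNC+8Br-cAMP and 184 in siNC. Its second probe set differed by 3.14 after knockdown and by at least 2.51 with control siRNA, the siNC value being under the floor. IGFBP5, which binds insulin-like growth factors, differed by -0.50 after knockdown and by 2.81 with control siRNA. It read 1586 in siYT+8Br-cAMP and 2239 in siYT, and 1031 in siNC+8Br-cAMP and 147 in siNC. Its 4 other probe sets above the floor lay between -0.83 and 0.97 after knockdown. GADD45A, a stress and arrest gene, read 7209 in siYT+8Br-cAMP and 3979 in siYT (0.86), and 2799 in siNC+8Br-cAMP and 16131 in siNC (-2.53). JUP, the junction protein plakoglobin, was 8.34-fold lower after knockdown and 0.61 higher with control siRNA, at levels close to the floor in siYT+8Br-cAMP and siNC.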

How the data were processed

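Expression in 4 RNA samples of KGN cells was measured on 1 array each, from RNA amplified with a 3' kit per the labels' protocols. The deposited values are linear probe set intensity. RMA and Affymetrix Expression Console are named per the submitters' processing notes, and their versions are not given in the sources used here. These intensities do not look like RMA output, since each array had a 2% trimmed mean of 500.1 and they ran down to 0.081, so the background correction and summary are unknown.

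Of 54675 probe sets, 41097 had 1 gene symbol, 1801 several and 11777 none, and the last 2 kinds were not used. A check of the symbols by gene identifier matched 41043 probe sets, and 0 symbols changed. A floor at the table's median (62.6, or log2 5.97) was set before log2, no further normalization was applied, and 1 probe set was kept for each gene. Named genes are the 20 highest and 20 lowest above the floor on both arrays, the 10 largest bounds on each side, up to 8 members of each list with the largest difference, the siRNA targets, and the 6 highest and 6 lowest differences from the control siRNA response. List members outside that rule and the MHC class II group were named after their values were seen. The members and lists were chosen with earlier results of these data known. The 2-fold rule was run on simulated data with changes planted only in genes well above the floor. The simulated noise was smaller than the spread seen between probe sets. The run therefore cannot speak for calls near the floor or for the error rate in these data. Alternatives covered the floor, the choice of probe set, the normalization and the threshold. Promoter windows came from RefSeq (GRCh38.p14). Python 3.11.15, pandas 2.3.3, numpy 2.4.6, R 4.3.3 and limma 3.58.1 were used.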

Additional observations from a re-analysis of the deposited data

Results flagged for a closer look

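Among genes above the floor on all 4 arrays, 19 were at least 2-fold one way with 8Br-cAMP after YAP/TAZ knockdown and at least 2-fold the other way with control siRNA. They were looked at again because the response had opposite signs in the 2 siRNA conditions, and the difference was not tested, since each combination had 1 array. ARMC7 had the largest gap, 3.26 on the log2 scale. It read 366 in siYT+8Br-cAMP and 95.0 in siYT, and 100.3 in siNC+8Br-cAMP and 249.7 in siNC, and its other probe set differed by 0.22 after knockdown. RAB23, a small GTPase that restrains Hedgehog signalling, had a gap of 2.84. It read 3843 in siYT+8Br-cAMP and 1902 in siYT, and 813 in siNC+8Br-cAMP and 2881 in siNC, with other probe sets at 0.14 and -0.80 after knockdown. In the other direction, CLIP1 differed by -2.11 after knockdown and 1.12 with control siRNA (gap -3.23). Its other probe sets ran from -1.10 to 0.72 after knockdown. VWA5A differed by -1.33 after knockdown and 1.65 with control siRNA (gap -2.98), with its other probe set at -0.71 after knockdown.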

How the results depend on the processing

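The counts of genes at least 2-fold higher and lower (732 and 1443) were 3198 and 3810 with no filter on level, 415 and 618 with a floor at the 75th percentile (388.7), 432 and 732 with the mean of each gene's probe sets, and 2169 and 3088 at 1.5-fold. They were 575 and 1229 without shared probe sets, 877 and 1196 after cyclic loess, and 893 and 1188 after quantile normalization. Lower calls outnumbered higher ones under each of these, and the higher share of the calls, 33.7% as reported, was 45.6% with no filter, 42.3% after loess and 42.9% after quantile normalization. Chosen after seeing the data, a restriction to genes with another probe set above the floor gave 351 and 772, and to those whose probe sets all went one way 236 and 456. With the mean over probe sets the sign turned for CPT2 (-0.23), HES1 (-0.016), SEC61B (0.12) and SIK2 (-0.0311). Without shared probe sets it turned for CPT2 (-1.49), CREM (-0.87), GDF15 (-0.16), IL1A (0.64), KRT7 (-0.67), RBMS1 (0.31) and UQCRB (0.55). The causes were not tested. Of the 40 highest and lowest genes, RBMS1 alone changed sign under any alternative run. Genes with no other probe set above the floor could not change sign through the choice of probe set. Of 44 list medians, 3 changed sign after loess, 5 after quantile normalization, 2 with no filter, 7 with the higher floor, 11 with the mean over probe sets and 10 without shared probe sets, and none of these was larger than 0.40 in size as reported. MHC class I was at -0.69 without shared probe sets. No paired analysis was possible because each group holds 1 array, and for that reason no replicate could be left out. Depth here is signal over background: 6154 genes at the floor on both arrays were not compared.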
